A study of Mus musculus with 90 samples.

Results

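Described here are genes of alveolar macrophages and of the alternatively activated macrophage state in mouse lung, 10 of the 17097 genes measured. They were Retnla, Chil3, Arg1, Mrc1, Marco, Ctsk, Pparg, Fabp4, Itgax and Mmp12. Each gene was taken from the array's probe sets that the platform annotates to its symbol alone, and the probe set with the highest mean over 90 arrays stood for the gene. Whole lungs of adult male C57Bl/6 mice were profiled, 1 animal per array, in 18 groups of 5 animals. The groups crossed 3 strains, 1 or 4 weeks, and 0, 40 or 120 ppm inhaled styrene. KO mice lacked Cyp2f2, a cytochrome P450 of mouse airway club cells that oxidises styrene. TG mice lacked Cyp2f2 too and carried human 2F1, SA13 (as the labels spell it) and 2B6. WT mice had Cyp2f2. No source used here names the promoter that drives the human genes. Exposed animals breathed styrene, and controls air, for 6 h on 5 days per week, and the lungs were collected the next morning after the final session.

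Alveolar macrophages live on the air side of the lung, where they take up surfactant lipid and inhaled particles. Granulocyte-macrophage colony-stimulating factor and the nuclear receptor Pparg set their identity. The cytokines Il4 and Il13, acting through the factor STAT6, turn macrophages to the alternatively activated state, marked by Retnla, Chil3, Arg1 and Mrc1, and the epithelial alarm cytokine Il33 can start that response. In whole lung, more cells of a type and more RNA per cell cannot be told apart.

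The labelled tissue was checked with Sftpc, the surfactant protein C gene, which lay between 13.6 and 13.9 log2 on all 90 arrays, and with Scgb1a1, the club cell secretoglobin, between 13.5 and 13.9. The targeted gene Cyp2f2 ranged from 11.5 to 12.3 in KO lungs and from 11.6 to 12.1 in TG lungs, against 12.7 to 13.4 in WT lungs, with no overlap. No source used here says whether its probe set lies in the deleted part. Array medians ran from 4.42 to 4.86 log2. For 4 arrays limma gave a weight below 0.25, namely animal 1 of the KO 40 ppm group at 4 weeks and, at 1 week, animal 3 of WT at 120 ppm, animal 5 of the TG controls and animal 3 of the KO controls. A change is a log2 group mean minus another, with its standard error (SE) from a limma fit over all arrays, n = 5 per group unless stated. A gene passed at an adjusted p under 0.05 over all 17097 genes.

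With styrene, 3 members changed, Retnla, Ctsk and Marco, and each of those changes was a higher level in exposed WT lungs. Retnla encodes a secreted resistin-like protein made by macrophages and airway epithelium under Il4 and Il13. Ctsk encodes cathepsin K, a lysosomal protease that degrades collagen. Marco encodes a scavenger receptor through which alveolar macrophages bind particles. Their upstream windows, the 250 bases before the annotated start in RefSeq's GRCm38.p6, are shown because these 3 genes carry the result. Capitals mark matches on either strand to TTC and GAA with 4 free bases between them (STAT6), TTNNGCAA (C/EBP) and GAGGAA (PU.1). The Retnla window lies at chr16:48842359-48842608 on the plus strand, the Ctsk window at chr3:95498960-95499209 on the plus strand and the Marco window at chr1:120505025-120505274 on the minus strand, each printed 5′ to 3′ along its gene.
Retnla: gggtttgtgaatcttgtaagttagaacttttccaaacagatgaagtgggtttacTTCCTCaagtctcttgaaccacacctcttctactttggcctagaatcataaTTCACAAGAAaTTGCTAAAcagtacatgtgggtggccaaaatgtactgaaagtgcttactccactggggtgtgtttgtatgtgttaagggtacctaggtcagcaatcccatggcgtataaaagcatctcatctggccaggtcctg
Ctsk: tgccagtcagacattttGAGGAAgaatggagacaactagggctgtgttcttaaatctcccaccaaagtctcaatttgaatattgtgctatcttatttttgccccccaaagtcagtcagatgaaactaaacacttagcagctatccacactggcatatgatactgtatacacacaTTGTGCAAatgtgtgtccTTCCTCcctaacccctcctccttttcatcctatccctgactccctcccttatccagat
Marco: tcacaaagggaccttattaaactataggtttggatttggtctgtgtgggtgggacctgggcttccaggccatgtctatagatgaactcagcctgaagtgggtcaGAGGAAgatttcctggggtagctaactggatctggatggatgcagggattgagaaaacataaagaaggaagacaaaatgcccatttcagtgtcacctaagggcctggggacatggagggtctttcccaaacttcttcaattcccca
In the Retnla window the STAT6 match (TTCACAAGAA) lay 145 to 136 bases before the start and the C/EBP match, on the other strand, 134 to 127 bases before it, so they did not overlap. The Ctsk window held a C/EBP match 76 to 69 bases before the start and PU.1 matches on each strand. The Marco window held a PU.1 match 146 to 141 bases before the annotated start of this window. Of 32851 windows of this length over 27025 genes, 5.85% held the STAT6 letters, 9.56% the C/EBP letters and 23.3% the PU.1 letters. Windows were found for 8 of the 10 members, 11 windows in all. Counted per gene over any of its windows, 2 members held the STAT6 letters (Retnla and Itgax), 4 the C/EBP letters and 6 the PU.1 letters. The shares above are per window, so they are not a like measure to these counts per gene. These matches describe letters and are no evidence of binding.

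**Figure D1:**
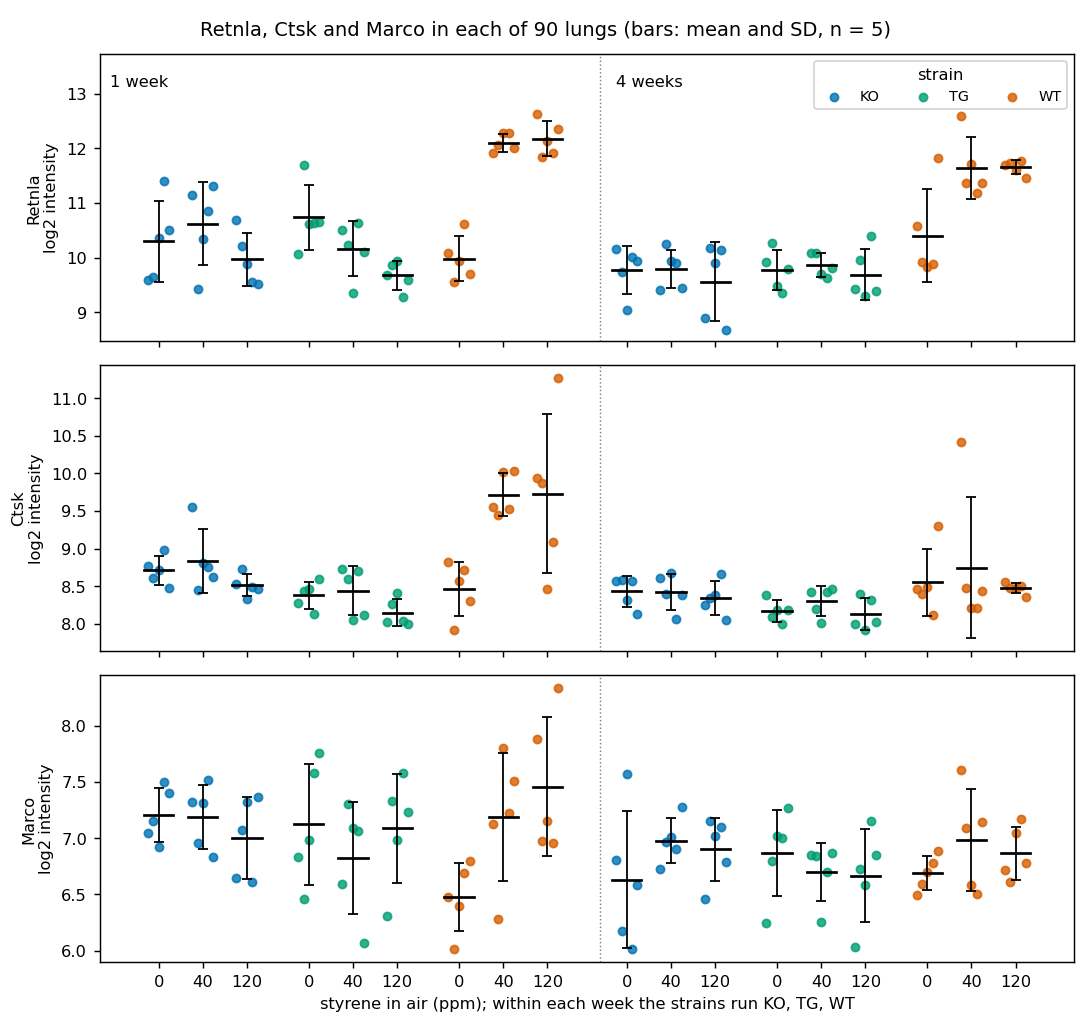
Log2 intensity of Retnla, Ctsk and Marco in each of 90 lungs (points), by styrene concentration in ppm, with the group mean (line) and SD (bars), n = 5. In the top panel the 4 exposed WT groups have means from 11.64 to 12.17, above the other 14 groups, whose highest mean is 10.74.

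Retnla was the member with the largest rise, and it rose in WT lungs at both concentrations within 1 week. In WT lungs at 1 week it read 11.91, 12.05, 12.28, 12.27 and 12.00 log2 at 40 ppm, and 12.62, 11.85, 12.13, 11.91 and 12.36 at 120 ppm, against 10.09, 9.56, 9.94, 10.62 and 9.71 in air controls. All exposed animals lay above every control. The change was 2.12 log2 (SE 0.31, 4.35-fold, adjusted p = 7.96e-07) at 40 ppm and 2.19 log2 (SE 0.31, 4.57-fold, adjusted p = 2.98e-07) at 120 ppm. Both calls held in each of 17 alternative settings.

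At 4 weeks Retnla still read 12.59, 11.36, 11.71, 11.19 and 11.36 log2 in WT lungs at 40 ppm and 11.69, 11.73, 11.60, 11.78 and 11.46 at 120 ppm, against 10.57, 9.92, 9.83, 9.88 and 11.81 in controls. Control animal 5, at 11.81, lay above all lungs of the 120 ppm group. The rise at 120 ppm was 1.25 log2 (SE 0.31, adjusted p = 0.0394), and the difference at 40 ppm was 1.24 log2 (SE 0.31, adjusted p = 0.0784), which did not pass. Without control animal 5 the values were 1.61 log2 at 120 ppm and 1.60 log2 (adjusted p = 0.00395) at 40 ppm. The 120 ppm call was lost in 10 of 18 alternatives, where its adjusted p reached 0.193.

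In KO and TG lungs no rise of Retnla passed the test. At 1 week KO lungs read 10.68, 10.21, 9.88, 9.55 and 9.51 log2 at 120 ppm, against 9.59, 9.64, 10.36, 11.41 and 10.50 in KO controls, and the groups overlapped. TG lungs read 9.68, 9.87, 9.94, 9.29 and 9.58 at 120 ppm, against 10.06, 11.70, 10.62, 10.64 and 10.66 in TG controls, so that all 5 exposed lungs lay below every control. That TG difference was -1.06 log2 (SE 0.31) with an unadjusted p of 0.00107 and an adjusted p = 0.251 in the limma fit, so it did not pass.

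Ctsk rose in WT lungs at 1 week by similar amounts at both concentrations. It read 9.55, 9.44, 10.02, 9.53 and 10.03 log2 at 40 ppm and 9.95, 9.87, 8.46, 9.09 and 11.27 at 120 ppm, against 8.82, 7.92, 8.56, 8.71 and 8.31 in controls. All 5 lungs at 40 ppm and 4 of 5 at 120 ppm lay above every control. The change was 1.25 log2 (SE 0.26, 2.38-fold, adjusted p = 4.61e-04) at 40 ppm and 1.26 log2 (SE 0.26, 2.40-fold, adjusted p = 3.72e-04) at 120 ppm. Lungs at 120 ppm spread widely (SD 1.06, against 0.29 at 40 ppm). Without animal 5 the 120 ppm change was 0.88 log2, and in a fit of the compared arrays alone its adjusted p was 0.262.

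Marco rose in WT lungs at 120 ppm and 1 week. It read 7.12, 6.28, 7.80, 7.22 and 7.51 log2 at 40 ppm and 7.88, 6.97, 7.15, 6.96 and 8.33 at 120 ppm, against 6.47, 6.02, 6.40, 6.69 and 6.80 in controls. The lungs at 120 ppm did not overlap with the controls, while 1 lung at 40 ppm did. The change was 0.98 log2 (SE 0.25, 1.98-fold, adjusted p = 0.00707) at 120 ppm and 0.71 log2 (adjusted p = 0.0928) at 40 ppm, which did not pass. Without animal 5 the 120 ppm change was 0.76 log2 with an adjusted p of 0.0834, and in a fit of the compared arrays alone the adjusted p was 0.174, so the call was lost in both. The WT control group at 1 week had the lowest Marco mean of the 18 groups, 6.48 ± 0.30 log2 (SD), while unexposed KO and TG lungs at 1 week averaged 7.20 ± 0.24 and 7.12 ± 0.54. Exposed WT lungs at 120 ppm, at 7.46 ± 0.62, differed from the unexposed lungs of the other strains by less than their own SD.

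Set against all genes, 2 of 10 members rose in WT lungs at 40 ppm and 1 week, where 4.67% of all genes passed and 3.82% were higher. At 120 ppm 3 of 10 rose, where 6.79% passed and 3.94% were higher. The members' median change was 0.60 and 0.67 log2, beside 0.03 and 0.00 log2 for all genes. The members, and the lists described later, were chosen with earlier results of these data known. Their shares and medians, here and below, are a description and no test against all genes. At 4 weeks 0 of 10 passed at 40 ppm (2 at an unadjusted p under 0.05 in limma), where 0.152% of all genes did. At 120 ppm 1 of 10 rose, where 0.439% of genes passed and 0.298% were higher, and the members' medians were 0.10 and -0.06 log2.

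**Figure D2:**
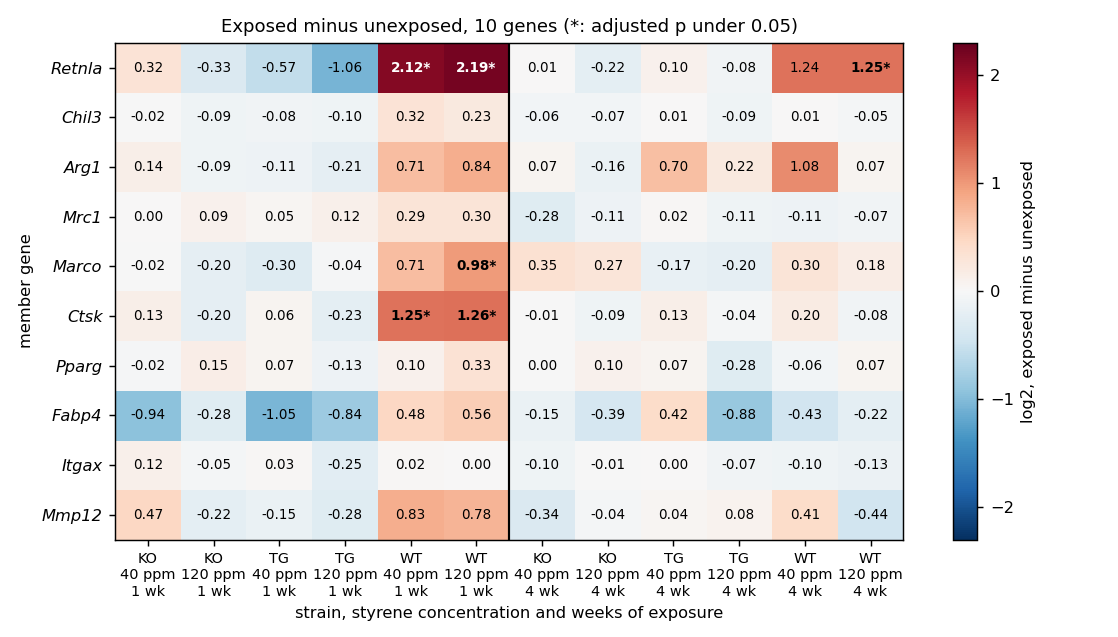
Change in log2 intensity (exposed minus unexposed, n = 5 lungs a group) of the 10 genes in 12 exposure comparisons, with an asterisk where the adjusted p over all genes was under 0.05. The 6 marked cells are all in WT columns, and the highest value is 2.19 for Retnla at 120 ppm and 1 week.

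The classical alternative activation members other than Retnla showed small or variable differences. Chil3, a chitinase-like protein that macrophages secrete, read 12.39, 12.43, 12.52, 12.58 and 12.61 log2 in WT lungs at 40 ppm and 1 week, against 12.21, 12.11, 12.15, 12.30 and 12.15 in controls. These groups did not overlap, but the difference was 0.32 log2 (SE 0.13, adjusted p = 0.159) in the fit over all arrays. In a limma fit of the compared arrays alone its adjusted p was 0.0197, and with array weights it was 0.0398. Its highest group mean was 12.51 and its lowest 11.99. Mrc1, the mannose receptor, averaged 9.08 ± 0.41 and 9.09 ± 0.44 log2 in WT lungs at 40 and 120 ppm and 1 week, against 8.80 ± 0.25 in controls (SD), and neither difference passed.

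Chil4 is a near copy of Chil3, and their upstream windows were identical at 91.0% of 221 aligned bases, with 58 gap positions left out of that share. The bright Chil4 probe set followed Chil3 over the 18 group means with Pearson's r of 0.991, and binding of either transcript to the other's probe set was not tested. A second, dim Chil4 probe set, with a mean of 3.63 log2 over 90 arrays, differed by 2.32 log2 at 40 ppm (adjusted p = 3.68e-05 over all 45037 probe sets) and by 1.49 log2 at 120 ppm (adjusted p = 0.0122) in WT lungs at 1 week. The bright one differed by 0.59 and 0.46 log2 and did not pass.

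Arg1, the arginase that diverts arginine from nitric oxide synthesis, had group means from 4.70 to 6.10 log2. In WT lungs at 1 week it read 6.44, 6.13, 4.21, 5.29 and 6.97 log2 at 120 ppm, against 5.30, 4.62, 4.78, 4.60 and 5.52 in controls. Of the exposed lungs 3 lay above every control and 1 lay below every control. The difference was 0.84 log2 (SE 0.43, adjusted p = 0.262). The lowest of these lungs, animal 3, was an array of low weight, and without the 4 arrays of low weight the difference was 1.24 log2 (adjusted p = 0.0434).

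Mmp12, the macrophage elastase, read 5.46, 5.76, 6.13, 5.68 and 6.05 log2 in WT lungs at 40 ppm and 1 week, against 4.85, 5.08, 4.86, 5.05 and 5.06 in controls. All 5 exposed lungs lay above every control. The difference was 0.83 log2 (SE 0.49, adjusted p = 0.422) in the fit over all arrays, whose spread for Mmp12 includes single lungs described later. In a fit of the compared arrays alone the same difference had an adjusted p of 0.00174. At 120 ppm the lungs read 6.12, 5.80, 4.93, 5.43 and 6.56, a difference of 0.78 log2 (adjusted p = 0.395).

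Itgax and Pparg, which like Marco mark the alveolar macrophage as a cell type, gave no passing change. Itgax, the integrin CD11c, differed from WT controls by 0.02 log2 (95% interval -0.31 to 0.35) at 40 ppm and by 0.00 log2 (-0.33 to 0.33) at 120 ppm at 1 week. Its group means spanned 7.13 to 7.49 log2, the narrowest range of the 10 members at 0.36 log2. Pparg, the nuclear receptor needed for alveolar macrophage development, differed by 0.10 log2 (-0.20 to 0.39) at 40 ppm and by 0.33 log2 (0.03 to 0.62, adjusted p = 0.187) at 120 ppm. WT 120 ppm animal 5 had the highest Pparg value, 7.87 log2, where its group's other lungs lay from 6.84 to 7.10.

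Fabp4, a fatty acid carrier of alveolar macrophages that adipocytes also make, varied the most between lungs of a group (within-group SD 0.84 log2). It followed the adipocyte hormone Adipoq. Over 90 lungs, with each value taken as its difference from its group mean, Pearson's r was 0.93 (permutation p = 1e-05, the lowest possible with 100000 resamples) and Spearman's rho 0.95. Without the 2 lungs farthest from the median in Fabp4, r was also 0.93. Both adjusted p-values, over 46 pairs computed, were at most 1.1e-04. The genes most like Fabp4 over the 18 group means were Thrsp (r = 0.948), Retn (0.935) and Mrap (0.920), and Retn encodes the adipocyte hormone resistin. For deviations from group means, the r of the other members to Fabp4 ran from -0.04 to 0.20. Over the 18 group means it ran from -0.30 (Mmp12) to 0.30 (Marco). The relation of the other members to Adipoq was not computed.

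**Figure D3:**
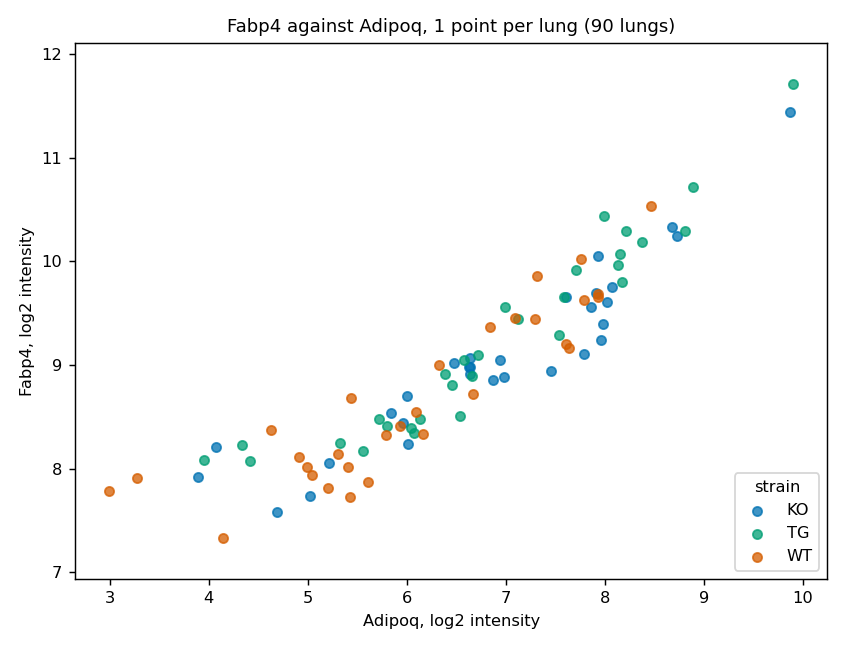
Log2 intensity of Fabp4 (vertical axis) against Adipoq (horizontal axis), 1 point per lung, coloured by strain. The points rise together over the whole range, and the r of deviations from group means is 0.93.

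Fabp4 read 9.92, 9.97, 10.07, 9.44 and 10.29 log2 in unexposed TG lungs at 1 week and 10.05, 9.06, 9.24, 8.98 and 11.44 in unexposed KO lungs, against 8.02, 7.82, 8.55, 8.02 and 9.62 in unexposed WT lungs. The WT values overlapped with those of both strains. Over both times the unexposed difference was 1.01 log2 (SE 0.37, n = 10 per strain, adjusted p = 0.320) for TG minus WT and 0.73 log2 (adjusted p = 0.782) for KO minus WT. Adipoq moved with it, by 1.18 and 1.05 log2 in the same comparisons, and neither passed. The part of adipose tissue in these values was not tested. The gene has 3 probe sets. Its other bright probe set, with a mean of 7.54 log2, gave 0.42 log2 at 40 ppm in WT lungs at 1 week beside 0.48 log2 for the brightest, and the dim one (mean 3.47) gave -0.32 log2.

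The strain comparison asked whether the styrene change depends on mouse Cyp2f2. In KO and TG lungs 0 of 10 members passed in any of 8 exposure comparisons by limma, with 0 members at an unadjusted p under 0.05 in each of the 4 KO comparisons and in the TG comparisons at 4 weeks, and 1 in each TG comparison at 1 week (Fabp4 at 40 ppm, Retnla at 120 ppm). Few genes of any kind passed there. In KO lungs 0%, 0%, 0% and 0.0234% of all genes passed at 40 and 120 ppm at 1 week and at 40 and 120 ppm at 4 weeks, and in TG lungs 0%, 0.0468%, 0% and 0.0117%.

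Tested directly at 1 week, the Retnla change differed between strains at both concentrations. The KO change minus the WT change was -1.80 log2 (SE 0.44, adjusted p = 0.0176) at 40 ppm and -2.52 log2 (SE 0.44, adjusted p = 1.86e-04) at 120 ppm. The TG change minus the WT change was -2.69 log2 (SE 0.44, adjusted p = 5.53e-05) at 40 ppm and -3.26 log2 (SE 0.44, adjusted p = 5.04e-07) at 120 ppm. Of these, 3 held in all 27 alternatives each, and the KO difference at 40 ppm was lost in 5 of 27.

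The Ctsk change differed between strains at 120 ppm, by -1.47 log2 (SE 0.36, adjusted p = 0.0126) for KO minus WT and -1.49 log2 (SE 0.36, adjusted p = 0.00682) for TG minus WT. In a fit of the compared arrays alone these had adjusted p-values of 0.302 and 0.245. At 40 ppm the differences were -1.13 (adjusted p = 0.114) and -1.19 log2 (adjusted p = 0.0754). Both passed in a limma fit of the compared arrays alone, with adjusted p-values of 0.0402 and 0.0136. With array weights the TG difference at 40 ppm passed too (adjusted p = 0.0256). For Marco at 120 ppm the differences were -1.19 (adjusted p = 0.0547) and -1.02 log2 (adjusted p = 0.0787), just outside the threshold. The KO one passed in 10 of 27 alternatives. The TG one passed in some, for example without WT 120 ppm animal 3 (adjusted p = 0.0411).

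**Figure D4:**
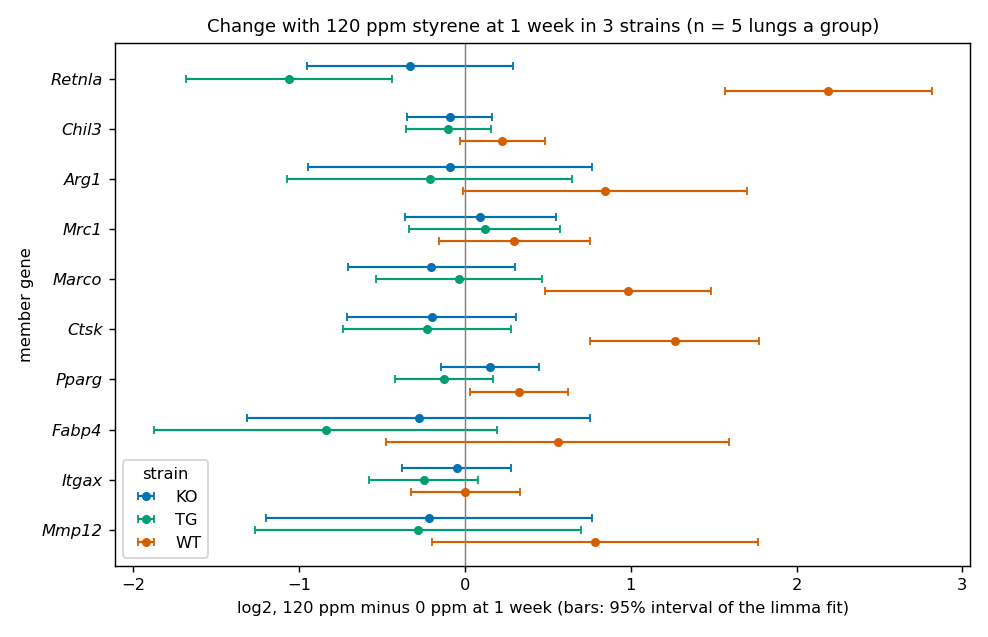
Change in log2 intensity with 120 ppm styrene at 1 week for the 10 genes in KO, TG and WT lungs, with the 95% interval of the limma fit (n = 5 lungs a group). For Retnla, the WT interval of 1.57 to 2.81 lies apart from the KO interval of -0.95 to 0.29 and the TG interval of -1.69 to -0.44.

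By count, 2 of 10 members differed in each strain comparison at 120 ppm and 1 week, both lower than in WT, where 2.37% of all genes differed for KO (1.76% lower) and 4.59% for TG (3.42% lower). The shares of all genes at 120 ppm moved with single lungs. With 1 animal left out, 158 (without WT 120 ppm animal 5) to 828 (without WT 120 ppm animal 3) genes differed for KO, where 405 did with all animals. For TG it was 300 (without TG control animal 5) to 1858 (without WT 120 ppm animal 3), where 784 did, and the fit of the compared arrays alone gave 6 for KO and 23 for TG. At 40 ppm 1 of 10 was lower in each, where 1.25% of genes differed for KO (1.05% lower) and 1.53% for TG (1.39% lower). The members' median at 120 ppm was -0.89 log2 for KO minus WT and -1.04 log2 for TG minus WT, beside -0.03 and -0.06 log2 for all genes. At 4 weeks 0 of 10 differed in each of the 4 comparisons by limma (1 at an unadjusted p under 0.05 in each), where 0.0234% and 0.0175% of genes differed for KO at 40 and 120 ppm and 0.0117% and 0.0292% for TG. That member was Retnla, at -1.47 log2 (KO, unadjusted p = 0.00135) and -1.33 log2 (TG, unadjusted p = 0.00356) at 120 ppm. The strain comparisons share the WT samples, so they are not independent of each other.

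Between 120 and 40 ppm in WT lungs 0 of 10 members passed in limma at either time, with 0 at an unadjusted p under 0.05 at 1 week and 1 at 4 weeks, and 0% of all genes passed at both times. For Retnla the difference was 0.07 log2 (95% interval -0.55 to 0.70) at 1 week and 0.01 log2 (-0.61 to 0.63) at 4 weeks. For Ctsk at 1 week it was 0.01 log2 (-0.50 to 0.52) and for Marco 0.27 log2 (-0.23 to 0.77).

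Between 4 weeks and 1 week the change in WT lungs differed for 1 of 10 members at 120 ppm, where 0.883% of all genes differed and 0.749% were lower, and for 0 of 10 at 40 ppm by limma (1 at an unadjusted p under 0.05), where 0.532% did. The member was Ctsk, whose change at 4 weeks minus that at 1 week was -1.34 log2 (SE 0.36, adjusted p = 0.0448), lost in 16 of 28 alternatives. At 4 weeks Ctsk read 8.55, 8.48, 8.47, 8.51 and 8.36 log2 at 120 ppm, against 8.47, 8.39, 8.48, 8.12 and 9.30 in controls. At 40 ppm the Ctsk difference was -1.06 log2 (adjusted p = 0.293), and -1.47 log2 (adjusted p = 0.00479) without WT 40 ppm animal 1 at 4 weeks. For Retnla the same differences were -0.88 log2 (adjusted p = 0.817) at 40 ppm and -0.94 log2 (adjusted p = 0.625) at 120 ppm.

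Without exposure the strains differed in 0 of 10 members by limma for KO minus WT (0 at an unadjusted p under 0.05), TG minus WT (2, Fabp4 and Marco) and TG minus KO (0). Of all genes 0.275%, 0.287% and 0.135% passed there. Unexposed lungs at 4 weeks and 1 week differed in 0 of 10 members (0 at an unadjusted p under 0.05), where 17.2% of all genes passed. Retnla was -0.36 log2 at 4 weeks minus 1 week (adjusted p = 0.173), and -0.48 log2 (adjusted p = 0.0475) without WT control animal 5.

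Signals and receptors of the pathway were read from a list of 18 measured genes, of which 3 rose and 0 fell in WT lungs at 1 week at each concentration. Il33 rose by 1.15 log2 at 40 ppm (adjusted p = 9.07e-05) and by 0.82 log2 at 120 ppm (adjusted p = 0.00803). Bhlhe40, a transcription factor of proliferating and alternatively activated macrophages, rose by 1.06 and 1.11 log2, and Csf2, the granulocyte-macrophage colony-stimulating factor gene, by 0.59 and 0.78 log2. The list's median was 0.10 and 0.08 log2. At 40 ppm the KO change of Il33 minus the WT change was -1.37 log2 (adjusted p = 0.00572), and the TG change minus the WT change was -1.02 log2 (adjusted p = 0.0627), which did not pass. At 120 ppm the KO change of Il33 minus the WT change was -1.10 log2 (adjusted p = 0.0299), and the TG change minus the WT change was -1.09 log2 (adjusted p = 0.0213). The Bhlhe40 change differed from WT at 1 week in both strains at both concentrations by limma (adjusted p from 0.0117 to 0.0422). In the same comparisons the Csf2 change did not pass (differences from -0.62 to -0.26 log2, adjusted p from 0.121 to 0.673). At 4 weeks in WT lungs 0 of 18 passed at each concentration by limma, with 2 and 3 at an unadjusted p under 0.05.

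Other markers of the same cell and state mostly did not pass, and neither did most genes. In WT lungs at 1 week 3.82% of all genes were higher at 40 ppm and 3.94% at 120 ppm. In either direction 4.67% and 6.79% passed. These shares stand beside the 1-week counts of every list described here. Of 15 other alveolar macrophage markers 2 rose in WT lungs at 1 week at each concentration, F7 (0.73 and 0.62 log2) at both, Fabp5 (0.48) at 40 ppm and Car4 (0.37) at 120 ppm, with list medians of -0.01 and 0.04 log2. Their mean level was 9.27 to 9.53 log2 in lungs at 40 ppm and 9.24 to 9.64 at 120 ppm, against 9.12 to 9.55 in controls. Of 15 other alternative activation genes 1 rose at each concentration, Retnlb (0.61 and 0.50 log2), a relative of Retnla. Of 5 chitinase-like and resistin-like relatives 2 rose, Retnlb and Chil1 (0.64 and 0.55 log2), and the first belongs to both lists.

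Markers shared by all macrophages rose in part. Of 10 pan-macrophage markers 2 rose at each concentration, Msr1 (0.73 log2) and Lyz2 (0.17) at 40 ppm and Cd68 (0.67) and Lyz2 (0.16) at 120 ppm. The list medians were 0.32 log2 at both, and 8 of 10 had an unadjusted p under 0.05 in limma. The share of all genes at an unadjusted p under 0.05 was not counted. The list's mean level was 8.91 to 9.06 log2 in lungs at 40 ppm and 8.55 to 9.38 at 120 ppm, against 8.45 to 8.84 in controls. Of 12 interstitial macrophage and monocyte markers 1 rose at 40 ppm and 2 at 120 ppm, Ms4a7 (0.90 and 0.79 log2) and Fn1 (0.48). Of 11 classical activation genes 1 rose at 40 ppm, Il6 (0.79 log2), and 0 at 120 ppm (3 at an unadjusted p under 0.05 in limma).

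Among 19 macrophage proteases and inhibitors, the list Ctsk and Mmp12 sit beside, 6 rose and 1 fell at 40 ppm, and 8 rose and 1 fell at 120 ppm. Mmp8, a collagenase of neutrophils, rose by 1.39 and 1.08 log2 and Acp5, the acid phosphatase of osteoclasts and macrophages, by 0.80 and 0.89 log2. Mmp3, stromelysin, changed by -0.98 and -0.62 log2. Of 11 arginine metabolism genes 0 passed at 40 ppm (1 at an unadjusted p under 0.05 in limma), and Slc7a1, an arginine transporter, fell by 0.41 log2 at 120 ppm.

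Markers of other cells moved with the WT changes at 1 week, and their part in the members' values was not tested. Of 9 neutrophil markers 2 rose, Cd177 (3.09 and 2.33 log2) and Mmp8, and the list's mean level was 6.49 to 6.62 log2 in lungs at 40 ppm and 5.69 to 6.98 at 120 ppm, against 5.83 to 6.39 in controls. All 7 cell division genes rose at each concentration, with medians of 1.88 and 2.06 log2. Of 10 endothelial markers 2 fell at 40 ppm and 5 at 120 ppm. Of 9 airway secretory genes 1 rose, the mucous cell gene Agr2 (2.81 and 2.39 log2). Of 5 eosinophil markers 0 passed at each concentration by limma (1 and 0 at an unadjusted p under 0.05), and the eosinophil peroxidase gene Epx read at most 2.78 log2 on any array, below every array median. Of 8 dendritic cell markers 0 passed (1 and 2 at an unadjusted p under 0.05), and of 6 adipocyte markers 0 passed (0 and 1). Of 8 fibroblast markers 1 rose (Col1a1) and 1 fell (Pdgfra) at each concentration, of 6 alveolar type II markers 1 rose (Muc1), and of 8 lymphoid and mast cell markers (0 and 2 at an unadjusted p under 0.05) and 8 liver markers (1 and 1) 0 passed.

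Over the 18 group means, as a description, the genes most like Retnla were Blvrb (r = 0.953), Urah (0.946) and Ckmt1 (0.942). Those most like Ctsk were Nek6 (0.981), Rrm1 (0.972), a ribonucleotide reductase subunit, and Tnfaip8l1 (0.967). For Marco they were Cdkn2d (0.885), Aifm2 (0.869) and Eif4ebp1 (0.863), and for Mrc1 Atp6v0d2 (0.936), Tc2n (0.917) and Acsl4 (0.915). Arg1 and Mmp12 shared Neil3, with r of 0.813 and 0.879. Among the members, Retnla was most like Ctsk (r = 0.822) and Mmp12 (0.814) and least like Itgax (-0.235). Single lungs carry some of the group means behind the Arg1 and Mmp12 values, and r without them was not computed. The WT 40 ppm mean at 4 weeks was 5.92 log2 for Mmp12 and 6.10 for Arg1 with animal 1 at 9.91 and 9.74, where the other 4 lungs read at most 5.20 and 5.26.

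Within groups, lungs that were high in one member tended to be high in some others. Each value was taken as its difference from its group mean, over 90 lungs. Ctsk and Itgax had Pearson's r of 0.78 and Spearman's rho of 0.67 (permutation p = 1e-05 for each, the smallest possible). The r was 0.72 without the 2 lungs farthest from the median in Ctsk, the first gene of the pair. WT 120 ppm animal 3 at 1 week, an array of low weight, stayed in. It lay at -1.27 log2 from its group mean in Ctsk and -0.81 in Itgax, and r without that lung was not computed. Chil3 and Mrc1 had an r and a rho of 0.71 (permutation p = 1e-05 for each), and r was 0.72 without the 2 farthest in Chil3. KO 40 ppm animal 1 at 4 weeks, an array of low weight, stayed in. It lay at -1.65 log2 from its group mean in Mrc1 and -0.56 in Chil3, and r without it alone was not computed. Retnla and Ctsk had an r of 0.49 and a rho of 0.54 (permutation p = 1e-05 for each), and r was 0.45 without the 2 farthest in Retnla. Retnla and Marco had an r of 0.13 (permutation p = 0.23) and a rho of 0.17 (permutation p = 0.14), although both rose in WT lungs at 120 ppm. After adjustment over the 46 pairs these values were 6.6e-05 for the r of the first 3 pairs and 0.28 for Retnla and Marco.

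In Mmp12 4 lungs had the highest values of all 90, and they came from different strains, weeks and concentrations, 2 of them from air controls. WT 40 ppm animal 1 at 4 weeks read 9.91 log2 for Mmp12 and 9.74 for Arg1, where its group's other 4 lungs lay from 4.68 to 5.20 and from 5.04 to 5.26. KO 40 ppm animal 1 at 1 week read 7.48 and 6.66, where the other 4 lay from 4.76 to 5.47 and from 4.92 to 5.21. WT control animal 5 at 4 weeks read 8.65 for Mmp12 and 6.49 for Arg1, and TG control animal 2 at 1 week 6.74 and 6.40. In Arg1 WT 40 ppm animal 1 at 4 weeks was set apart too, as the next of the 90 lungs read 6.97. The other named lungs were not set apart from all lungs in Arg1. WT 120 ppm animal 5 at 1 week (6.97) lay above them. TG 40 ppm animal 3 at 4 weeks (6.53) and WT 120 ppm animal 1 at 1 week (6.44) lay among them. In WT 40 ppm animal 1 at 4 weeks all 10 members lay above the other 4 lungs of the group. It was 9 of 10 in WT control animal 5, 5 of 10 in KO 40 ppm animal 1 and 3 of 10 in TG control animal 2. The 4 lungs with the highest Mmp12 were not arrays of low weight, and their weights ran from 0.995 to 1.41.

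**Figure D5:**
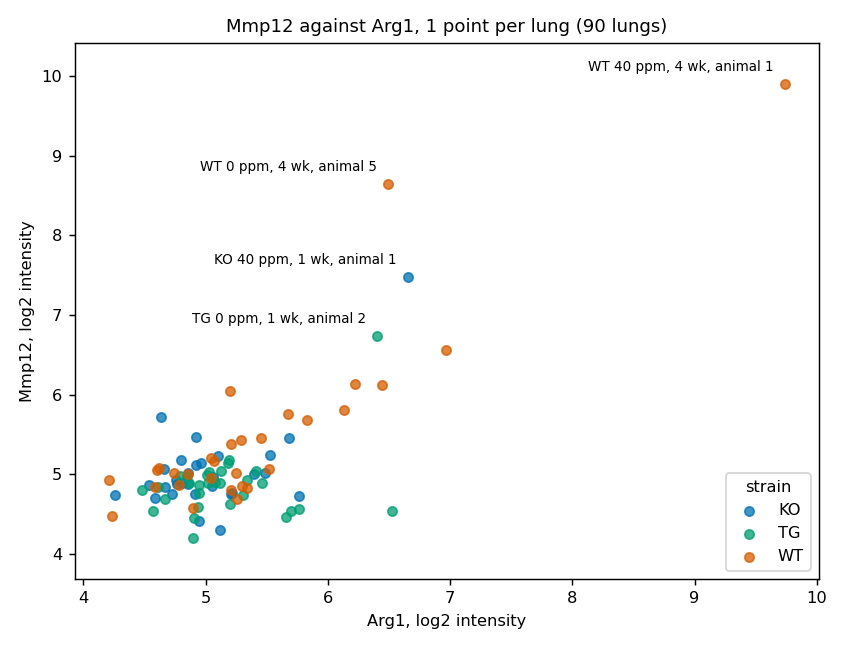
Log2 intensity of Mmp12 (vertical axis) against Arg1 (horizontal axis), 1 point per lung, coloured by strain, with 4 lungs named. The named lungs have the 4 highest Mmp12 values, from 6.74 to 9.91, while the median of all 90 lungs is 4.93.

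Over all 90 lungs Arg1 and Mmp12 deviations had a Pearson's r of 0.79 (permutation p = 7e-05) and a Spearman's rho of 0.49 (permutation p = 4.1e-04). Without the 2 lungs farthest in Arg1 the r was 0.63, and without the 4 named lungs, chosen after their values were seen, it was 0.53. Of the 4, the 2 WT lungs enter the 4-week WT comparisons. With WT control animal 5 and WT 40 ppm animal 1 both left out, Retnla at 40 ppm and 4 weeks differed from controls by 1.36 log2 (adjusted p = 0.0395).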

How the data were processed

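RNA of 90 whole mouse lungs, 1 per Affymetrix array, was read from the deposited table of log2 intensities. The submitters' processing notes name RMA and Partek, with no version in the sources used here. Of 45141 probe sets, 104 controls and 551 with several symbols were set aside, and 28898 with 1 symbol gave 17097 genes, each represented by its brightest probe set. Group means of the 18 groups were fitted with limma 3.58.1 in R 4.3.3 (72 residual degrees of freedom), with Benjamini-Hochberg adjustment over all 17097 genes in each of 28 comparisons. The scripts were tested on simulated data. Array number limits the precision. The members and lists were chosen with earlier results of these data known. Named were all members, up to 4 passing genes per list by size of change, and the 3 genes most like each member, with Chil4 and Cyp2f2 beside them. Replicate numbers were not used to pair animals in the main fit. Alternatives were another summary of probe sets, a repeated quantile normalization, a filter on dim genes, a fit of the compared arrays alone, array weights, a replicate block and each animal left out. Sequences are from RefSeq GRCm38.p6.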

Additional observations from a re-analysis of the deposited data

Results flagged for a closer look

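Single lungs lay far from the other 4 of their group in 17 of 180 sets of 5 values. For normally distributed values the rule picks out about 1 in 20 sets, or 9. The genes were read in the same lungs, so the sets are not independent, and 17 beside 9 is no test of an excess. The flagged values came from 8 animals, 12 values being high and 5 low. WT 40 ppm animal 1 at 4 weeks gave 7 of them, with 12.81 log2 for Chil3, 9.74 for Arg1, 9.60 for Mrc1, 10.41 for Ctsk, 9.86 for Fabp4, 8.10 for Itgax and 9.91 for Mmp12, each above the rest. WT control animal 5 at 4 weeks was high in Chil3 (12.84) and Mmp12 (8.65), and KO 40 ppm animal 1 at 1 week in Arg1 (6.66) and Mmp12 (7.48). WT 120 ppm animal 5 at 1 week was high in Pparg (7.87). Low values were Chil3 in KO 40 ppm animal 1 at 4 weeks (11.44, an array of low weight), Mrc1 in TG control animal 5 at 1 week (8.14, also of low weight), Itgax in TG 40 ppm animal 5 at 1 week (6.91), and Marco (6.25) and Mmp12 (4.54) in TG 40 ppm animal 3 at 4 weeks.

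The change with styrene differed between groups in 7 tested differences of limma. At 1 week the Retnla change was lower in KO than in WT lungs by -1.80 log2 at 40 ppm and -2.52 log2 at 120 ppm, and the TG change minus the WT change was -2.69 and -3.26 log2. The Ctsk change at 120 ppm differed by -1.47 log2 for KO minus WT and -1.49 log2 for TG minus WT. Between 4 weeks and 1 week in WT lungs at 120 ppm it differed by -1.34 log2.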

How the results depend on the processing

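The counts of members that passed are given here where an alternative moved them by over 1.5 times. With dim genes left out the 4-week minus 1-week count in WT lungs at 120 ppm was 0 (1 reported). In fits of the compared arrays alone the counts were 4 in WT at 40 ppm and 1 week, 1 at 120 ppm and 1 week, 0 at 120 ppm and 4 weeks, 1 for KO minus WT and 1 for TG minus WT at 120 ppm and 1 week, 2 for TG minus WT at 40 ppm and 1 week, and 0 for the time difference at 120 ppm. With array weights they were 4 in WT at 40 ppm and 1 week, 1 at 40 ppm and 4 weeks, 0 for KO minus WT and 2 for TG minus WT at 40 ppm and 1 week, and 1 for the time difference at 40 ppm. With both WT lungs of high Mmp12 at 4 weeks left out, chosen after seeing the data, they were 1 in WT at 40 ppm and 4 weeks, 1 for the time difference at 40 ppm and 1 for unexposed 4 weeks minus 1 week. With each animal left out in turn the counts ran from 2 to 3 in WT at 1 week (40 and 120 ppm), 0 to 1 in WT at 4 weeks (both), 0 to 1 for KO minus WT at 40 ppm, 1 to 3 for KO minus WT and 2 to 3 for TG minus WT at 120 ppm, 0 to 1 for both time differences and 0 to 1 for unexposed 4 weeks minus 1 week. Same-numbered animals of different groups had a mean correlation of deviations of 0.0557, and differently numbered ones -0.0129. For number 1 alone it was 0.126. A mean correlation cannot show whether the numbers carry a shared order, and the main fit did not use the numbers. With the replicate block the count for KO minus WT at 120 ppm and 1 week was 3, and Retnla in WT at 120 ppm and 1 week stayed at 2.19 log2 (adjusted p = 4.07e-07). No passing member changed sign. Of 267 pairs of member and comparison that did not pass, 117 changed sign in at least 1 setting and 11 passed in at least 1. Over all genes, 1161 passed in WT at 120 ppm and 1 week, against 36 in the fit of those arrays alone and 2800 without the 4 arrays of low weight, and 799 at 40 ppm, against 2446 with array weights and 1385 without those arrays. Of the 1161, 674 were higher, against 1010 of 1392 with quantile normalization applied again. The causes were not tested.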

Other observations

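The 4 lungs that stood apart in Mmp12, chosen after their values were seen, also had the 4 highest values of Rnase2a, an eosinophil-associated ribonuclease family gene of the mouse, and of Fbp1, a gluconeogenic enzyme. Rnase2a read 8.85 log2 in WT 40 ppm animal 1 at 4 weeks, 7.39 in WT control animal 5 at 4 weeks, 6.59 in KO 40 ppm animal 1 at 1 week and 6.75 in TG control animal 2 at 1 week, where the median of 90 lungs was 2.75 and the next lung read 3.83. Fbp1 read 7.73, 7.81, 7.09 and 6.45 in the same lungs, where the median was 3.43 and the next lung 4.22. Both genes were among those furthest above the group's other lungs in these same animals, so their high values there are no independent result. Slc26a4 was among those genes too and did not set the lungs apart. It read 8.84, 7.62, 6.71 and 7.17 log2 in them, and 7.90 in WT 120 ppm animal 5 at 1 week. The 5 eosinophil markers of the list differed from the other 4 lungs of each group by 0.19, 0.02, -0.06 and 0.05 log2 on average. Larger average differences were seen in other lists, some of which are given in the same order of lungs. They were 0.88, 0.42, 0.16 and 0.35 log2 for the 15 other alternative activation genes. The 9 airway secretory markers gave 0.78, -0.64, 0.11 and -0.56, and the 9 neutrophil markers -0.34, -0.78, 0.43 and -0.38. Classical activation genes differed by 0.39 in the KO lung, dendritic cell markers by 0.43 in the TG lung and adipocyte markers by 0.59 in WT 40 ppm animal 1. No list was tested in these lungs. Between 20 and 80 genes lay over 1 log2 above the mean of the group's other lungs in these animals, where the median of all 90 arrays was 21 genes.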
